A study of Mus musculus with 17 samples.

Results

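Signalling by vascular endothelial growth factor (VEGF) and the angiopoietins was followed through 10 genes of mouse spinal cord: the ligands Vegfa, Angpt1 and Angpt2, the receptors Kdr, Flt1, Flt4, Tek and Tie1, and the genes Plvap and Lrg1. They were chosen by symbol, as every feature of the array (probe set) that the platform annotation assigns to 1 of these genes alone. This gave 17 probe sets of 34958 with 1 gene, and 10 genes of 18194. In 5 of the genes a single probe set stood for the gene, and in 5 there were several. The probe set with the highest mean over all arrays leads each gene below.

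RNA came from a 4.5 mm piece of thoracic cord centred on the injection site of 17 female C57BL/6 mice (C57BL/6J in the methods of the study), perfused with saline, with 1 array a mouse. The sample labels give an age of 8 weeks for all mice, without saying whether this was at the start or when cords were taken. The 6 naïve mice were left untreated. The other 11 had targeted EAE, a model of multiple sclerosis. These mice were immunized with a peptide of the myelin protein MOG in complete Freund's adjuvant. Weeks later they received a laminectomy at Th8, TNF-α and IFN-γ into the cord, and pertussis toxin. Of these, 5 were given an isotype control antibody (palivizumab) and 6 a humanized anti-RGMa antibody (RGMa is repulsive guidance molecule A), both at 10 mg/kg from 9 days post-induction (DPI), and cords were taken at 14 DPI. Since naïve mice had neither immunization nor surgery, disease, injection and laminectomy cannot be told apart in any comparison with them.

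VEGF-A is made by astrocytes, neurons and other cells and acts on endothelium through Kdr (VEGFR2), while Flt1 (VEGFR1) holds it with high affinity and largely acts as a decoy. Angpt1, from perivascular cells, activates the receptor Tek (Tie2) and stabilizes vessels, whereas Angpt2, released by activated endothelium, competes with it, and Tie1 modulates Tek. In the central nervous system these signals set how tight the blood-spinal cord barrier is: VEGF-A and Angpt2 are known to loosen it. Plvap forms the diaphragms of fenestrae and caveolae, absent from most barrier vessels, and Lrg1 is a secreted glycoprotein that inflammation induces and that alters TGF-β signalling in endothelium.

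The proximal promoters of Lrg1, Tie1 and Kdr are shown here, since of the members with a promoter sequence at hand these rose most in EAE with isotype control. They are 300 bases each, from 250 before to 50 after the annotated start. They come from RefSeq sequences of build GRCm38.p6, read 5′ to 3′ on the strand of the gene, and all 3 genes lie on the minus strand. Capitals mark CAGGAA, a core that ETS factors of endothelium bind, and GGGCGG, the GC box, on either strand (TTCCTG and CCGCCC on the other). The windows are chr17:56121897-56122196 for Lrg1, chr4:118489800-118490099 for Tie1 and chr5:75978406-75978705 for Kdr.
Lrg1: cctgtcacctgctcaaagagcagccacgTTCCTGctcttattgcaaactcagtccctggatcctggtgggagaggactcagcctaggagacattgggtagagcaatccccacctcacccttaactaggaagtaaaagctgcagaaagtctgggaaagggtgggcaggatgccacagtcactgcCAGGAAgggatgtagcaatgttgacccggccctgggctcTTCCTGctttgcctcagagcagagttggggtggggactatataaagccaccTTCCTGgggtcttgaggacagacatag
Tie1: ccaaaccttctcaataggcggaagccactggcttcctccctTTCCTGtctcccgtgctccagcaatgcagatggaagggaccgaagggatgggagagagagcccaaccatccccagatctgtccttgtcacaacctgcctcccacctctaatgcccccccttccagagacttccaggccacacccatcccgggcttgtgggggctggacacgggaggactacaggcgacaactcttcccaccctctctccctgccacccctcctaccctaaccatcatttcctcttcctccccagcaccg
Kdr: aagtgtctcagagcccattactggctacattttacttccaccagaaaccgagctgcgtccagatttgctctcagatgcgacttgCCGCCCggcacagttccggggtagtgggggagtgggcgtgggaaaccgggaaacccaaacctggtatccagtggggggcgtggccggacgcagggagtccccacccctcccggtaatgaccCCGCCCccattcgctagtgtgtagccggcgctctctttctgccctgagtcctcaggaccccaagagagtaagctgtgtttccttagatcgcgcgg

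Lrg1 had 4 CAGGAA matches and 0 GC boxes, Tie1 had 1 and 0, and Kdr had 0 and 2. Among 32851 promoter windows of the same length, 30.6% held CAGGAA at least once and 0.149% held it 4 times or more, and 35.7% held GGGCGG. The core ACGTG of the hypoxia response was in the Lrg1 window once, where it shared 1 base with a CAGGAA match, in 1 of the 2 Vegfa windows once, in no window of the other members, and in 19.6% of all windows. TTCNNNGAA, the STAT motif, was in 0 of the windows of the members and in 8.30% of all. Windows were found for 7 of the 10 genes (Angpt1, Angpt2 and Plvap had none). The motifs were picked after the signals had been seen, and a match is a description of the letters, not of binding.

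Signals are given as log2 of the deposited MAS5 signal, on which 1 unit is a doubling. Groups were compared with limma. Against naïve mice a probe set was called at an adjusted p under 0.05 (Benjamini-Hochberg over all 34958). Between the antibody groups the threshold was that of the study, which takes a fold change over 1.5 with p under 0.05 before adjustment, and adjusted p-values stand beside it. A probe set is called dim below if the highest of its 3 group means lay under 7.66, the median of all log2 signals. Dim probe sets carry more background, and 6 of the 17 were dim, among them the leading ones of Tie1 and Flt4. Isotype control and anti-RGMa were compared with the same naïve arrays, and the comparison of the antibodies shares arrays with both, so the 3 comparisons are given side by side and not as support for each other.

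The leading probe sets of 7 of the 10 genes were higher in targeted EAE with isotype control than in naïve cord, with Lrg1, Tie1, Angpt2 and Kdr first by size, and those of Vegfa, Flt1 and Plvap did not pass. Of the 17 probe sets 8 were higher, 1 was lower and 8 did not pass. Over all probe sets tested, 21.4% were called higher and 26.3% lower. In anti-RGMa mice 4 were higher than in naïve mice, 3 lower and 10 did not pass, beside 17.0% and 20.9% of all probe sets. Between the antibodies 3 probe sets, of Lrg1, Tie1 and Angpt2, were lower with anti-RGMa at the threshold of the study, 0 were higher and 14 did not pass. The shares of all probe sets were 2.55% lower and 1.42% higher. At an unadjusted p under 0.05 alone there were 6 of 17, beside 13.5% of all, and at an adjusted p under 0.05 limma called 0 of 17, beside 0% of all (0 of 34958).

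The median log2 fold change of the 17 probe sets was 0.28 for isotype control against naïve and 0.22 for anti-RGMa against naïve, where all probe sets had -0.06 and -0.06. For anti-RGMa against isotype control it was -0.17, with 12 of 17 below 0, where all probe sets had 0.01 and 48.7% below 0. Counts of higher and lower calls against naïve depend on the scaling of the arrays. Of all calls for isotype control against naïve 44.8% were higher as deposited, 39.7% after quantile normalization and 34.3% with array medians set equal. For anti-RGMa against naïve they were 44.8%, 39.4% and 32.8%. Equal medians lowered all fold changes against naïve by a median of 0.13 and 0.11.

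**Figure D1:**
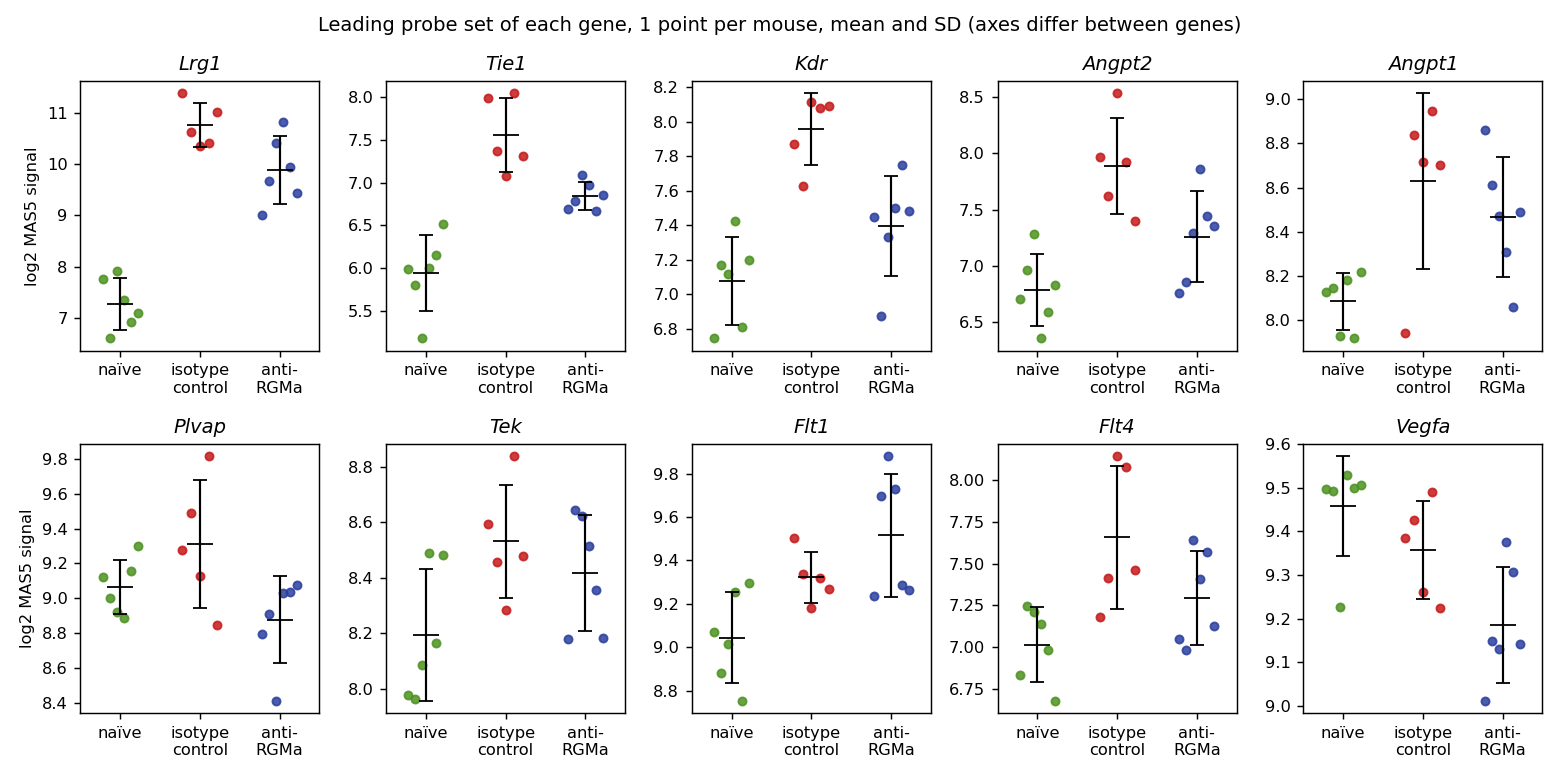
Log2 MAS5 signal (y axis, range differing between genes) of the leading probe set of each of the 10 genes, with 1 point per mouse in naïve (n = 6), isotype control (n = 5) and anti-RGMa (n = 6), and bars for the mean and SD. Lrg1 lies at 10.35 or above in all isotype control mice and at 7.92 or below in all naïve mice. Isotype control and naïve mice overlap for Vegfa, Tek, Plvap, Flt1, Flt4 and Angpt1.

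Vegfa, the VEGF ligand that drives permeability and vessel growth, was the one member whose leading probe set was called lower than naïve, which held in the anti-RGMa group. On probe set 1420909_at naïve mice had signals from 9.23 to 9.53 with a median of 9.50, and anti-RGMa mice from 9.01 to 9.38 with a median of 9.15. Isotype control mice had 9.38, 9.43, 9.26, 9.49 and 9.22. The groups overlap, and the naïve group overlaps the anti-RGMa group only through naïve replicate 3, at 9.23. The means were 9.46 ± 0.11 (SD, n = 6) in naïve, 9.36 ± 0.11 (SD, n = 5) in isotype control and 9.19 ± 0.13 (SD, n = 6) in anti-RGMa. With anti-RGMa Vegfa fell by 0.27 on the log2 scale against naïve (SE 0.08, limma adjusted p = 0.0141), below the naïve mean in 6 of 6 mice. With isotype control the log2 fold change was -0.10 (adjusted p = 0.357), which became -0.23 (adjusted p = 0.0384) with array medians set equal. Between the antibodies it was -0.17 (unadjusted p = 0.0602). The second Vegfa probe set, 1451959_a_at, is dim. It fell by 0.52 against naïve in both antibody groups (adjusted p = 0.0214 and 0.0221), and between them the difference was 0.0039 (95% interval -0.37 to 0.37). Its calls were lost without isotype control replicate 4 (-0.43) or naïve replicate 2 (-0.47), respectively.

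Angpt2, the ligand that endothelium releases when activated, had signals on 1448831_at of 7.96, 7.62, 8.53, 7.93 and 7.40 in isotype control mice. In naïve mice they ran from 6.36 to 7.28 with a median of 6.77, and in anti-RGMa mice from 6.76 to 7.86 with a median of 7.32. All isotype control mice were above all naïve mice, and anti-RGMa mice overlapped both groups. The means were 6.79 ± 0.32 (SD, n = 6), 7.89 ± 0.43 (SD, n = 5) and 7.26 ± 0.41 (SD, n = 6) in naïve, isotype control and anti-RGMa. Angpt2 rose by 1.10 in isotype control against naïve (SE 0.23, adjusted p = 0.0008), a 2.15-fold difference. With anti-RGMa it was lower than with isotype control by a log2 fold change of -0.63 (SE 0.23, 95% interval -1.11 to -0.15, unadjusted p = 0.0136, adjusted p = 0.294), in 6 of 6 mice below the isotype control mean. Against naïve, anti-RGMa mice had 0.47 (adjusted p = 0.0981), or 0.57 (adjusted p = 0.0497) once anti-RGMa replicate 1 was left out. The call between the antibodies was lost when isotype control replicate 3 (-0.47), anti-RGMa replicate 1 (-0.53) or anti-RGMa replicate 2 (-0.55) was left out, and under other settings given at the end. The other Angpt2 probe set, 1459636_at, is dim, from 0.44 to 5.24 over all arrays, and carried no call.

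Angpt1, the ligand that keeps Tek active, had probe sets that disagreed. On 1439066_at signals were 7.94, 8.84, 8.72, 8.95 and 8.70 in isotype control mice. They ran from 7.92 to 8.22 in naïve mice and from 8.06 to 8.86 in anti-RGMa mice. Isotype control replicate 1 lay among the naïve mice, and the other 4 were above them. This probe set rose by 0.54 in isotype control against naïve (SE 0.17, adjusted p = 0.0131). The other, 1421441_at, is dim and had -0.57 in that comparison (adjusted p = 0.0776). In anti-RGMa against naïve it fell by 0.66 (adjusted p = 0.0411), while 1439066_at had 0.38 (adjusted p = 0.0716). Between the antibodies the log2 fold changes were -0.16 and -0.09, neither called. So no single direction can be given for Angpt1, and the mean of its 2 probe sets was -0.012 in isotype control against naïve. With array medians set equal 1439066_at had 0.41 (adjusted p = 0.0632) and 1421441_at -0.70 (adjusted p = 0.0273) in that comparison. Single mice also decided calls against naïve: 9 of the 17, each left out alone, ended that of 1421441_at in anti-RGMa (-0.69 to -0.58), isotype control replicate 3 or 4 brought one in isotype control (-0.71 and -0.69), and isotype control replicate 1 or anti-RGMa replicate 5 brought one for 1439066_at in anti-RGMa (0.38 and 0.46).

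As Angpt1 and Angpt2 bind the same receptor, the log2 difference between their leading probe sets was taken within each array. It is a comparison of how 2 probe sets moved, not a ratio of transcripts. In isotype control mice it was 0.02, -1.22, -0.18, -1.02 and -1.30. In naïve mice it lay between -1.82 and -0.65 and in anti-RGMa mice between -2.10 and -0.45. The groups overlapped, with means of -1.30 ± 0.38 (SD, n = 6) in naïve, -0.74 ± 0.62 (SD, n = 5) in isotype control and -1.20 ± 0.64 (SD, n = 6) in anti-RGMa. The difference in means was 0.56 for isotype control against naïve (exact permutation test over 462 assignments, two-sided, p = 0.115, adjusted over the 3 comparisons 0.344). It was 0.09 for anti-RGMa against naïve (exact permutation, p = 0.749, adjusted 0.749) and -0.46 for anti-RGMa against isotype control (exact permutation, p = 0.253, adjusted 0.380). None held up against the spread between mice.

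Kdr, the main signalling receptor for VEGF-A on endothelium, was higher in isotype control mice than in naïve mice with no overlap. On 1449379_at isotype control mice had 7.87, 7.63, 8.11, 8.08 and 8.09. Naïve mice had 6.74 to 7.42 with a median of 7.15, and anti-RGMa mice 6.88 to 7.75 with a median of 7.47. Anti-RGMa mice had a median between those of the other groups and overlapped both. Anti-RGMa replicates 2 and 3, at 6.88 and 7.33, lay inside the naïve range, and only anti-RGMa replicate 5, at 7.75, reached the isotype control range. Kdr rose by 0.88 in isotype control against naïve (SE 0.15, adjusted p = 0.0002), a 1.84-fold difference. In anti-RGMa against naïve it had 0.32 (adjusted p = 0.103), and against isotype control -0.56 (SE 0.15, 95% interval -0.89 to -0.23, unadjusted p = 0.0024, adjusted p = 0.262). The last is a 1.47-fold difference, just short of the fold threshold of 1.5, in 6 of 6 mice. Leaving out isotype control replicate 2 (-0.64) or anti-RGMa replicate 5 (-0.63) took Kdr past that threshold, and leaving out anti-RGMa replicate 2 gave 0.42 against naïve (adjusted p = 0.0197).

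Flt1, which binds VEGF-A more tightly than Kdr does but signals weakly, had 4 probe sets that did not move alike. On the leading one, 1451756_at, isotype control mice had 9.50, 9.34, 9.18, 9.32 and 9.27, naïve mice 8.75 to 9.29 and anti-RGMa mice 9.23 to 9.88. It rose by 0.47 in anti-RGMa against naïve (adjusted p = 0.0093) and had 0.28 in isotype control against naïve (adjusted p = 0.108). Probe set 1440926_at had 8.39, 8.39, 8.30, 8.23 and 8.46 in isotype control mice, all above the naïve range of 7.65 to 8.10. It rose by 0.54 and 0.55 in isotype control and anti-RGMa against naïve (adjusted p = 0.0018 for both), and the antibodies differed by 0.01. On 1454037_a_at the sign in isotype control against naïve was the other way, at -0.44 (adjusted p = 0.0854). This fold change was called once naïve replicate 6 was left out (-0.52) and with array medians set equal (-0.58, adjusted p = 0.0242). Between the antibodies 1454037_a_at had 0.45 (unadjusted p = 0.0419, short of the fold threshold), a sign shared by all 4 probe sets. The remaining probe set, 1419300_at, had no call in any comparison. None of the 4 was called between the antibodies, and the leading one had 0.19, a sign opposite to that of Kdr.

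Flt4 (VEGFR3), the receptor of lymphatic vessels that also marks sprouting blood vessels, was measured by dim probe sets. On 1444052_at isotype control mice had 7.18, 7.42, 8.14, 8.08 and 7.46, naïve mice 6.68 to 7.25 and anti-RGMa mice 6.98 to 7.64. Isotype control replicates 3 and 4 stood above every other array, and replicate 1 lay inside the naïve range. This probe set rose by 0.64 in isotype control against naïve (SE 0.19, adjusted p = 0.0097) and had -0.36 between the antibodies (unadjusted p = 0.0724). The rise was not called without isotype control replicates 3, 4 and 5 (0.28), with the mean of skeletal muscle markers (0.42) or of endothelial markers (0.37) as a covariate, or for the mean of both Flt4 probe sets (0.27). The other, 1421442_at, had -0.11 and -0.30 in these comparisons and no call. Of 5 lymphatic markers measured, Pdpn, also an astrocyte and fibroblast gene, was called higher in isotype control than in naïve, Reln, also a gene of neurons, was called lower, and Lyve1 and Mmrn1 were dim. Between the antibodies 4 of the 5 were below 0, with a list mean of -0.45 and a list median of -0.33. The dim Mmrn1 was called lower at -1.23 (unadjusted p = 0.0480). The others were not called, with -0.78 for the dim Lyve1, -0.33 for Pdpn, -0.11 for Prox1 and 0.19 for Reln. The part of lymphatic markers in the result was not tested.

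Tek, the receptor of both angiopoietins, changed little. On 1418788_at isotype control mice had 8.59, 8.46, 8.28, 8.84 and 8.48, naïve mice 7.96 to 8.49 and anti-RGMa mice 8.18 to 8.64, with wide overlap. It rose by 0.34 in isotype control against naïve (SE 0.13, adjusted p = 0.0499), a call at the edge of the threshold that was lost in 18 of 30 alternative settings and turned sign in 1 more. In 11 of these settings a single mouse was left out (0.26 to 0.36). Between the antibodies Tek had -0.11 (95% interval -0.40 to 0.17), which covers no difference as well as a fall of 0.40.

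Tie1, the partner receptor of Tek, was the one receptor for which neither EAE group overlapped the naïve mice on the leading probe set. On 1416238_at naïve mice had 5.18 to 6.52 with a median of 5.99, isotype control mice 7.99, 7.37, 7.07, 8.04 and 7.31, and anti-RGMa mice 6.66 to 7.08 with a median of 6.82. Both EAE groups lay wholly above the naïve mice, and the antibody groups touched only where anti-RGMa replicate 3, at 7.08, met isotype control replicate 3, at 7.07. The means were 5.94 ± 0.44 (SD, n = 6), 7.56 ± 0.43 (SD, n = 5) and 6.84 ± 0.16 (SD, n = 6). Tie1 rose by 1.62 in isotype control (SE 0.22, a 3.07-fold difference) and by 0.90 in anti-RGMa (SE 0.21, adjusted p = 0.0028), each against naïve. With anti-RGMa it was lower than with isotype control by a log2 fold change of -0.72 (SE 0.22, 95% interval -1.17 to -0.26, unadjusted p = 0.0044, adjusted p = 0.270), in 6 of 6 mice. The probe set is dim by the rule above, so the fold is less certain than that of a bright gene. With an offset of 32 added to all signals it was -0.59 and kept its call.

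**Figure D2:**
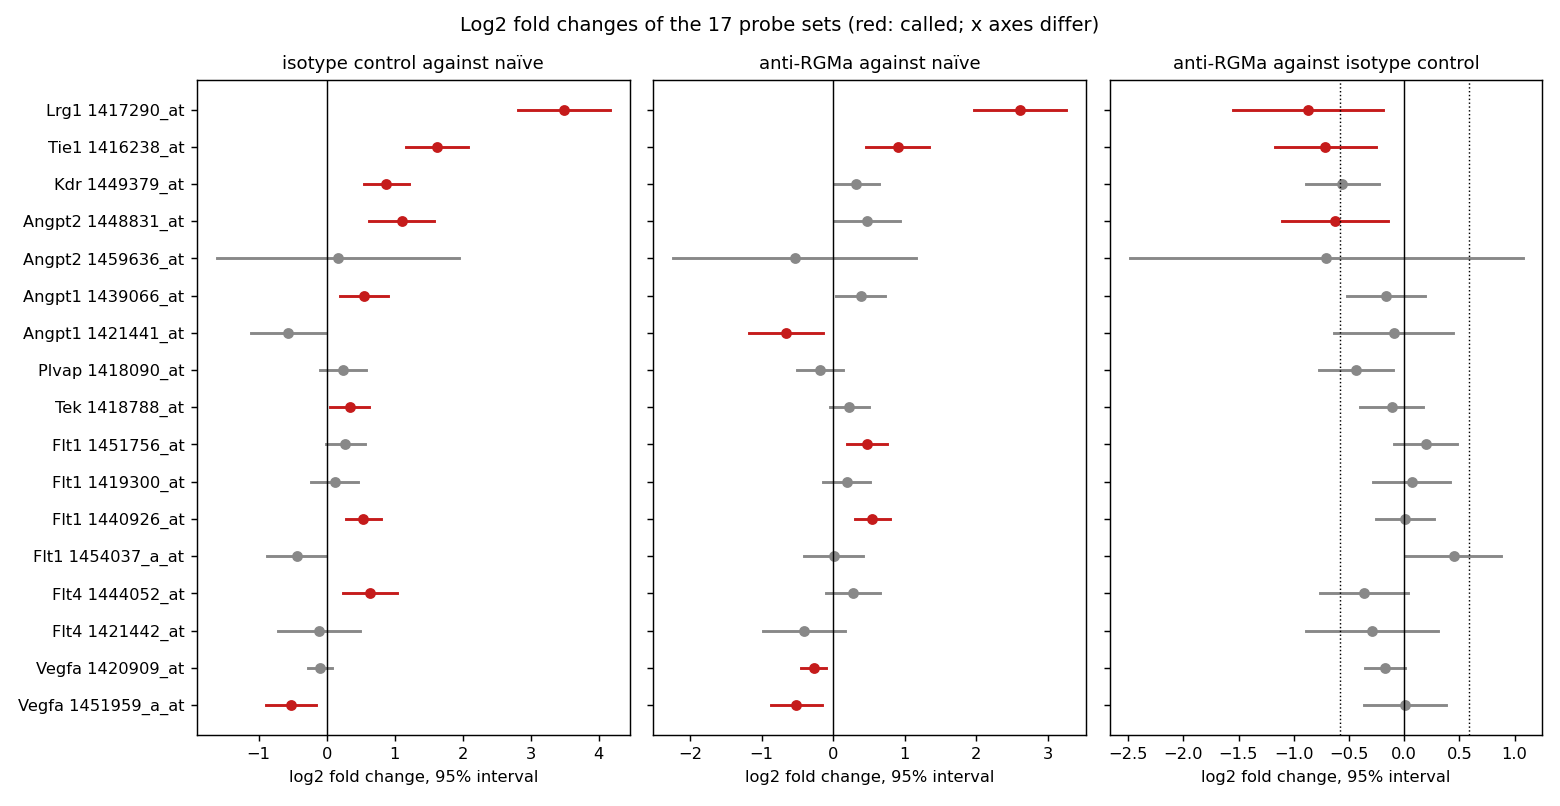
Log2 fold change (x axis, range differing between panels) with its 95% interval for each of the 17 probe sets in the 3 comparisons, red where called, with dotted lines at the 1.5-fold threshold in the panel of anti-RGMa against isotype control. Lrg1 (-0.87), Tie1 (-0.72) and Angpt2 (-0.63) lie beyond the lower dotted line, and Kdr (-0.56) lies just inside it.

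Plvap, whose protein builds the diaphragms of leaky vessels, did not pass in any comparison. On 1418090_at isotype control mice had 9.28, 9.49, 9.13, 9.82 and 8.85, naïve mice 8.89 to 9.30 and anti-RGMa mice 8.41 to 9.07. The isotype control mice spread over more than the whole naïve range. Between the antibodies Plvap had -0.44 (SE 0.16, unadjusted p = 0.0149, adjusted p = 0.298), a 1.35-fold difference that is short of the threshold. It had 0.25 in isotype control (adjusted p = 0.224) and -0.19 in anti-RGMa (adjusted p = 0.366) against naïve.

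Lrg1 had the largest fold changes of the 17 probe sets in the comparisons with naïve. On 1417290_at naïve mice had 6.60 to 7.92 with a median of 7.22, isotype control mice 11.38, 10.63, 10.35, 10.41 and 11.01, and anti-RGMa mice 9.01 to 10.82 with a median of 9.81. Both EAE groups were far above the naïve mice, and anti-RGMa replicates 3 and 4, at 10.42 and 10.82, lay inside the isotype control range. The means were 7.27 ± 0.51 (SD, n = 6), 10.76 ± 0.43 (SD, n = 5) and 9.88 ± 0.66 (SD, n = 6). Lrg1 rose by 3.49 in isotype control (SE 0.32, an 11.2-fold difference) and by 2.61 in anti-RGMa (SE 0.30, a 6.12-fold difference), each against naïve. With anti-RGMa it was lower than with isotype control by a log2 fold change of -0.87 (SE 0.32, 95% interval -1.55 to -0.20, unadjusted p = 0.0148, adjusted p = 0.298), a 1.83-fold difference, in 5 of 6 mice. Its promoter was the one above with 4 CAGGAA matches.

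The other genes of these pathways were counted by lists, 48 genes with 1 probe set each, the one with the highest mean. Against naïve 34 were higher and 4 lower in isotype control, and 29 were higher and 3 lower in anti-RGMa. Over the leading probe sets of all 18194 genes, the shares were 24.2% higher and 26.6% lower in isotype control and 19.8% and 20.8% in anti-RGMa. Between the antibodies, where 2.73% of all genes were lower and 1.23% higher, 7 were lower, 0 higher and 41 not called, and at an adjusted p under 0.05 limma called 0 of 48, with 19 under an unadjusted p of 0.05. With the mean of endothelial markers as a covariate Ehd2 and Socs3 alone of the 7 kept their call between the antibodies, and with that of skeletal muscle markers Klf2, Il6 and Socs3 did. Named below, unless stated otherwise, are the 3 genes per list whose p was smallest in that comparison.

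Among VEGF ligands and co-receptors 3 of 6 were higher and 1 lower in isotype control against naïve, and 0 were called between the antibodies. Nrp1, the co-receptor that strengthens Kdr signalling, rose by 1.73 and 1.30 in isotype control and anti-RGMa against naïve and had -0.43 between them. Vegfb, a ligand of Flt1, fell by 0.90 in isotype control against naïve and had 0.32 between the antibodies. Vegfc, the ligand of Flt4, was dim and was not called, with -0.63 between the antibodies, and any of 4 mice left out brought a call (-0.83 to -0.63).

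Of the 5 partners of the Tie receptors 4 were higher than naïve in each antibody group and 1 was lower with anti-RGMa than with isotype control. That was Klf2, a flow-responsive transcription factor of quiescent endothelium, with -0.71 (SE 0.18, unadjusted p = 0.001, adjusted p = 0.260), after a rise of 1.69 in isotype control and 0.98 in anti-RGMa against naïve. Foxo1, which drives Angpt2 when Tek is inactive, had 0.67, 0.42 and -0.25 in the same order of comparisons, and Ptprb, the phosphatase that turns Tek off, had 0.70, 0.40 and -0.30. Both were called against naïve in each group and not between the antibodies.

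Of 10 genes of tip cells or induced by VEGF 6 were higher and 2 lower in isotype control against naïve, 3 were higher and 2 lower in anti-RGMa, and 1 was lower between the antibodies. Nos3, the endothelial nitric oxide synthase, rose by 0.67 in isotype control against naïve and had 0.22 in anti-RGMa and -0.45 between them. Egr3 and Rcan1, early targets of Kdr signalling, had -0.55 and -0.24 between the antibodies, neither called, though that of Egr3 was once any of 4 mice was left out (-0.68 to -0.59). The gene called was Esm1, a secreted marker of tip cells, chosen here after its values were seen. It had a log2 fold change of -1.64 (SE 0.71, unadjusted p = 0.0337, adjusted p = 0.345) after a rise of 3.49 in isotype control against naïve. Its call was lost when any of 6 mice was left out, isotype control replicates 1 to 4 and anti-RGMa replicates 2 and 3 (-1.63 to -1.12).

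Of 9 hypoxia genes 5 were higher and 1 lower in isotype control against naïve, 5 were higher in anti-RGMa, and 0 were called between the antibodies, with a list median of 0.01. Bnip3, a mitophagy gene, fell by 0.39 in isotype control against naïve and had 0.23 between the antibodies. Ankrd37 had 0.47 between the antibodies, 0.64 without isotype control replicate 2 and 0.60 without anti-RGMa replicate 1, both called, and Car9, a carbonic anhydrase induced by HIF, had -0.45 and was dim.

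Of 6 caveola genes 4 were higher in isotype control against naïve, 3 were higher in anti-RGMa, and 3 were lower between the antibodies, with a list median of -0.51. Caveolae carry cargo across endothelium and Plvap can sit at their necks. Cav1, the main caveolin, had -0.67 (unadjusted p = 0.0063) and Ehd2, which holds caveolae at the membrane, had -0.63 (unadjusted p = 0.0007), both called. Cavin3 had -0.39, short of the fold threshold, and the other called gene was Cavin1 at -0.71, named after its values were seen. All 3 calls were lost when isotype control replicate 4 (-0.48 for Cav1, -0.53 for Ehd2 and -0.51 for Cavin1) or anti-RGMa replicate 2 (-0.58, -0.56 and -0.57) was left out, and that of Ehd2 also without isotype control replicate 3 (-0.55). All 3 were also lost with the skeletal muscle covariate (-0.55 for Cav1, -0.55 for Ehd2 and -0.56 for Cavin1) and without isotype control replicates 3, 4 and 5, the arrays with most muscle signal (-0.56, -0.46 and -0.40). Fibroblasts and muscle also express these genes.

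All 4 TGF-β receptors of the list, through which Lrg1 acts in endothelium, were higher than naïve in both antibody groups, and 0 were called between them. Bulk samples do not show which cells carried these receptor signals. Tgfbr2 had 2.22, 1.85 and -0.36 in isotype control against naïve, anti-RGMa against naïve and between the antibodies, Tgfbr1 had 1.98, 1.80 and -0.18, and Acvrl1 (ALK1) had 1.25, 0.99 and -0.25. The 8 genes of the acute phase and IL-6 signalling, which induce or accompany Lrg1, were all higher than naïve in both groups, with list medians of 4.58 and 3.58. Between the antibodies 2 were lower: Il6, the cytokine itself, by -2.03 (SE 0.80, unadjusted p = 0.0227, adjusted p = 0.320) and Socs3, its feedback inhibitor, by -0.82 (SE 0.30, unadjusted p = 0.016, adjusted p = 0.302). The call of Il6 was lost when isotype control replicate 2 (-1.81) or isotype control replicates 3, 4 and 5 (-2.53) were left out. Osmr had -0.54, short of the fold threshold, and -0.59 past it when isotype control replicate 3 or anti-RGMa replicate 6 was left out.

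**Figure D3:**
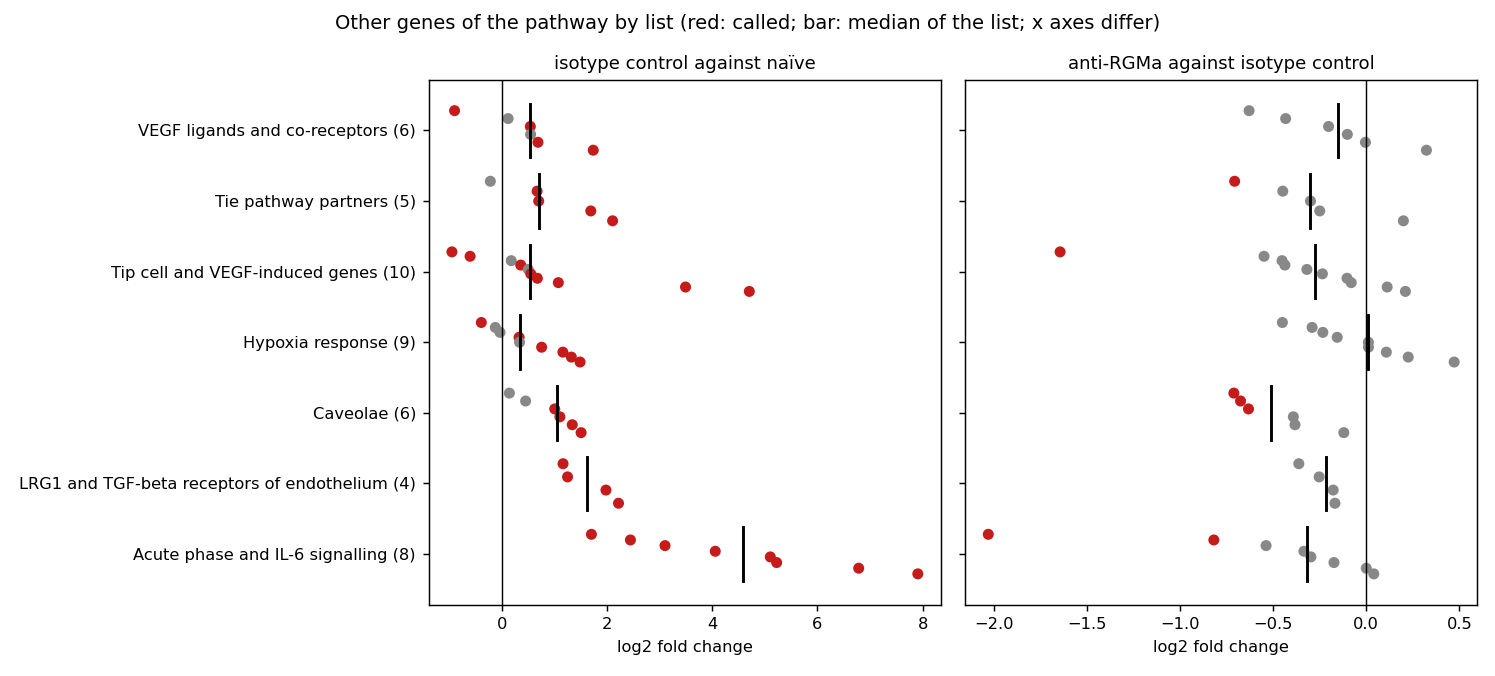
Log2 fold changes (x axis, range differing between panels) of the 48 other pathway genes by list, for isotype control against naïve and anti-RGMa against isotype control, red where called, with a bar at the median of each list. Most points lie right of 0 in the first panel, and in the second the 7 called genes all lie left of 0, 3 of them in the caveola list (median -0.51).

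These are bulk samples, in which fewer endothelial cells and less RNA per cell cannot be told apart, so markers of the cell types present were set beside the members. The mean log2 signal of 12 endothelial markers, none of them a member, was 8.32 ± 0.16 (SD, n = 6, range 8.11 to 8.58) in naïve, 9.19 ± 0.24 (SD, n = 5, range 8.97 to 9.50) in isotype control and 8.84 ± 0.21 (SD, n = 6, range 8.53 to 9.11) in anti-RGMa. The naïve mice lay below all isotype control mice and overlapped the anti-RGMa mice through naïve replicate 4 (8.58) and anti-RGMa replicate 1 (8.53). The antibody groups overlapped too. Of the 12, 10 were called higher in isotype control than in naïve and 7 in anti-RGMa. Between the antibodies 11 of 12 were below 0 with a mean of -0.35, and 2 were called, Cdh5 (-0.71), lost when isotype control replicate 4 was left out (-0.57), and Ecscr (-0.59), lost for any of 6 mice (-0.57 to -0.53). Endothelial markers therefore moved in the same direction as Lrg1, Tie1, Angpt2 and Kdr. The means of pericyte, macrophage and monocyte, fibroblast and skeletal muscle markers did so too. With the endothelial mean of each array as a covariate, the log2 fold changes between the antibodies were -0.33 for Lrg1, -0.36 for Tie1, -0.52 for Angpt2 and -0.45 for Kdr, and none was called. Kdr was not called without the covariate either. Calls against naïve were lost too with that covariate, over all probe sets as well as among the members (counts over all probe sets are given at the end). In isotype control against naïve Tie1 had 0.72, Angpt2 0.83 and Kdr 0.61, and of the 9 member calls only that of Lrg1 (2.13, adjusted p = 0.0463) was left. In anti-RGMa against naïve Tie1 had 0.37, and of 7 calls those of Lrg1 (1.80) and Vegfa on 1420909_at were left. Endothelial markers' part in the results was not tested.

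Other lists also differed between the groups. Pericyte markers had means of 8.84, 9.42 and 9.21 in naïve, isotype control and anti-RGMa. In isotype control against naïve 4 of 8 were below 0, with a list mean of 0.58 and a list median of 0.21. Between the antibodies 6 of 8 were below 0, and 1, Pdgfrb (-0.74, limma unadjusted p = 0.0002), was called lower. The 6 fibroblast markers had a mean of 9.45 in naïve, 12.08 in isotype control and 10.63 in anti-RGMa, and 6 of 6 were called lower with anti-RGMa than with isotype control. The mean of 11 skeletal muscle markers ranged from 3.99 to 8.03 in naïve, from 4.93 to 13.25 in isotype control and from 5.45 to 7.08 in anti-RGMa, and 3 of 11 were called lower with anti-RGMa than with isotype control. Isotype control replicates 3, 4 and 5 had 8.97, 13.25 and 9.22, and naïve replicate 4, at 8.03, was also above every anti-RGMa mouse. Without those 3 mice the log2 fold changes between the antibodies were -1.12 for Lrg1 and -0.84 for Tie1, both still called, -0.53 for Angpt2, not called, and -0.35 for Kdr. In isotype control against naïve the muscle covariate ended the calls of Angpt1 on 1439066_at (0.39), Tek (0.18), Vegfa on 1451959_a_at (-0.39) and Flt4, as did leaving out those 3 mice (0.31, 0.33 and -0.37 for the first 3). Macrophage and monocyte markers had means of 7.47, 11.28 and 10.84 in naïve, isotype control and anti-RGMa. Between the antibodies 8 of 10 were below 0 and 3 were called lower, the scavenger receptor Msr1 (-1.07), the mannose receptor Mrc1 (-1.05) and the endotoxin co-receptor Cd14 (-0.61). Neutrophil markers had 5.84, 9.95 and 10.06, with 0 of 6 called between the antibodies. Platelet markers, which matter since platelets store Angpt1 and VEGF-A, had means of 5.96, 6.96 and 6.58, and 1 of 4, Pf4 (-1.22), was called lower with anti-RGMa. The others were not called, with -0.40 for Itga2b, -0.02 for the dim Ppbp and 0.14 for the dim Gp9. Neuron markers had 13.02, 11.94 and 12.42, with 1 of 8 called higher with anti-RGMa than with isotype control, and astrocyte markers 12.72, 13.00 and 13.15, with 0 of 8 called, both high as the label of spinal cord asks. The part of these cells in the results was not tested.

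**Figure D4:**
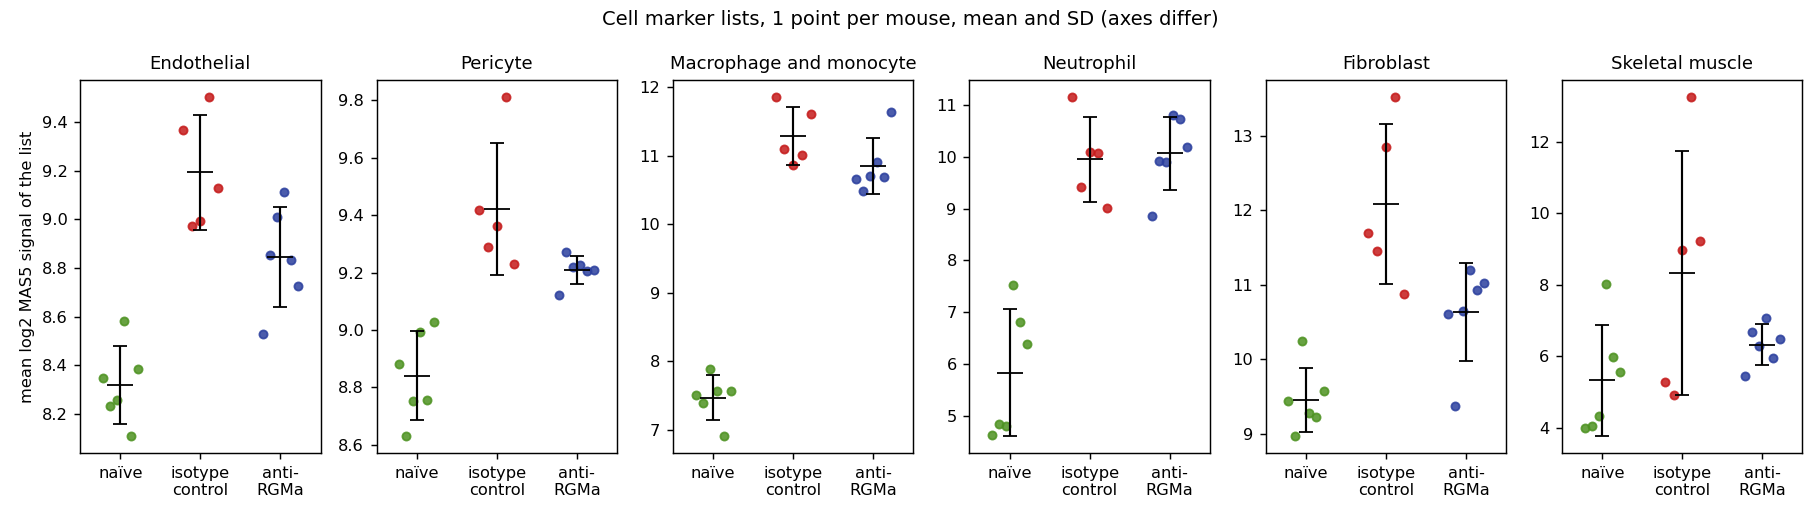
Mean log2 MAS5 signal (y axis, range differing between panels) of 6 cell marker lists, with 1 point per mouse and bars for the mean and SD in naïve, isotype control and anti-RGMa. Means of the endothelial list (8.32, 9.19 and 8.84) order the groups as those of Kdr, Tie1 and Lrg1 do. So do those of the pericyte, macrophage and monocyte, fibroblast and skeletal muscle lists, but not those of the neutrophil list. In the pericyte list 4 of 8 markers were below 0 in isotype control against naïve. For skeletal muscle 1 isotype control mouse stands at 13.25.

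The genes whose signals followed the members most closely from mouse to mouse were sought among 11365 leading probe sets that were not dim (11366 for Tie1), after subtracting each group's mean, over 17 arrays. The measure is Pearson's r, a description given with no p, since arrays share their scaling and cell makeup. Plvap was followed most closely by Rcan1 (0.80), the VEGF-induced gene above, Igfbp4 (0.77) and Lrrfip2 (0.76). Lrg1 was followed by Cactin (0.78), Ceacam1 (0.76), an adhesion molecule of myeloid cells and vessels, and Cldn5 (0.75), the claudin of barrier endothelium. Kdr was followed by Cyp4f13 (0.78), Zfp398 (0.78) and the chemokine receptor Ackr3 (0.77). For Tie1 the genes were Ankrd27 (0.90), D430042O09Rik (0.86) and Pcf11 (0.84). For Vegfa they were Sox13 (0.80), Hic1 (0.76) and Tiam1 (0.72), and for Angpt1 Trim35 (0.91), Gpr180 (0.83) and Zbtb10 (0.82).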

How the data were processed

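Expression in spinal cord was measured on 1-colour Affymetrix Mouse Genome arrays, 17 in all and 1 a mouse. The deposited values are linear signal intensity values, which the authors computed with MAS5.0 under global scaling, with no pooling. The processing notes of the submitters name affy and MAS5, with no version of affy at hand. In the deposited table the mean signal after trimming 2% at each end was 500.0 on every array. Array medians ran from 132 to 145 in naïve, 137 to 165 in isotype control and 136 to 157 in anti-RGMa, pairs of arrays correlated at 0.859 to 0.953, and no pair was identical. No detection calls were used, and the number of arrays limits the precision. No source at hand ties mice to litters or runs.

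Probe sets were named through the platform annotation. Of 45101, 34958 had 1 gene, 932 several and 9211 none, and only the first were used. By gene ID 34754 matched the GRCm38.p6 gene table, with 0 symbols changed. Log2 of the signals, without offset or filter, went into a fit of all 3 groups at once by lmFit and eBayes of limma (version 3.58.1, under R version 4.3.3), the tool the methods of the study name, and p-values were adjusted by Benjamini-Hochberg. The fit was tested on simulated data. Named genes followed a rule: all probe sets of the members, in each pathway list the 3 genes with the smallest p between the antibodies, and the 3 genes most correlated with each of 6 members. The members, lists, markers and alternatives were chosen with earlier results of these data known. Alternatives covered scaling, an offset of 32, dim probe sets, choice of probe set, arrays in the fit, variance model, array weights, covariates, a replicate block and arrays left out. Python 3.11.15 and matplotlib 3.10.9 served for summaries and figures.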

Additional observations from a re-analysis of the deposited data

Results flagged for a closer look

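In 51 groups of arrays, 1 for each of the 17 probe sets in each of the 3 groups, the highest or lowest mouse was tested for standing apart from the rest (Dixon's test). Such a test picks out about 1 group in 20 by chance, and here it picked out 3. For Vegfa on 1420909_at, naïve replicate 3 had a log2 signal of 9.23 while the others lay between 9.49 and 9.53, a gap of 0.876 of the whole range. For Angpt1 on 1439066_at, isotype control replicate 1 had 7.94 while the others lay between 8.70 and 8.95, a gap of 0.757 of the range. For Flt4 on the dim probe set 1421442_at, naïve replicate 4 had 5.33 while the others lay between 6.08 and 6.42, a gap of 0.681 of the range.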

How the results depend on the processing

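Between anti-RGMa and isotype control, Lrg1 and Tie1 lost their call only with the endothelial covariate (-0.33 and -0.36). Tie1 was not tested with dim probe sets left out. Angpt2 lost it in 7 settings (-0.67 to -0.47): an offset of 32, the mean of a gene's probe sets, the endothelial covariate, and without isotype control replicate 3, anti-RGMa replicate 1, anti-RGMa replicate 2, or isotype control replicates 3, 4 and 5. Flt1 1454037_a_at passed with the endothelial covariate and without those 3 mice (0.59 to 0.68). Arrays of different groups with the same replicate number correlated at -0.05 to 0.04 once each group's mean was subtracted. The labels do not say whether the replicate number pairs the mice, and these correlations cannot settle it. With the number as a block 7, 5 and 3 member probe sets were called for isotype control against naïve, anti-RGMa against naïve and anti-RGMa against isotype control, the last 3 being Angpt2, Lrg1 and Tie1, and 16589, 12799 and 1888 of all.

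The 9 member calls of isotype control against naïve became 4 with the mean of a gene's probe sets, 5 with the muscle covariate and 1 with the endothelial covariate. The 7 of anti-RGMa against naïve became 4 with 1 probe set a gene, 4 with the mean and 2 with the endothelial covariate. Between the antibodies the endothelial covariate ended all 3 calls and brought 1 other, Flt1 1454037_a_at, higher with anti-RGMa. Calls over all probe sets against naïve fell from 16670 and 13253 to 9426 and 7621 with 1 probe set a gene, 8357 and 6714 with the mean (both test fewer features), and 2152 and 3839 with the endothelial covariate. Between the antibodies 1388 fell to 817 with an offset of 32, 623 without dim probe sets, 716 with 1 probe set a gene and 699 with the mean. At an adjusted p under 0.05, 0 became 1 without dim probe sets, 1 with 1 probe set a gene, 1 with the mean, 1 with a trend and robust eBayes, 4 with the replicate block and 21 without isotype control replicates 3, 4 and 5. For members it stayed 0 in all of these. The cause was not tested.

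Leaving out each mouse in turn gave 8 to 10, 5 to 8 and 2 to 4 member calls in the order of comparisons above, and 15283 to 16878, 11445 to 13309 and 1039 to 2319 over all. Without anti-RGMa replicate 6 the last was 2319, with 1561 at an adjusted p under 0.05 (range 0 to 1561) and 0 of the members (range 0 to 0). Angpt2 minus Angpt1 ran from 0.37 to 0.70, from -0.059 to 0.27 and from -0.62 to -0.27, and turned sign for anti-RGMa against naïve without naïve replicate 4 (-0.013), anti-RGMa replicate 4 (-0.059) and anti-RGMa replicate 5 (-0.026).

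Signs turned mostly where fold changes were small. With the endothelial covariate the turned values in isotype control against naïve were -0.42 (Flt1 1451756_at), -0.54 (Flt1 1419300_at), 0.22 (Flt4 1421442_at), 0.17 (Angpt1 1421441_at) and -0.38 (Tek). In anti-RGMa against naïve they were -0.21 (Flt1 1419300_at), -0.20 (Flt1 1454037_a_at), 0.68 (Angpt2 1459636_at) and -0.21 (Tek), and between the antibodies 0.17 (Tek), 0.087 (Ptprb) and 0.0045 (Car9). With the mean of a gene's probe sets they were -0.012 for Angpt1 in isotype control against naïve, -0.14 for Angpt1, -0.063 for Flt4 and -0.034 for Angpt2 in anti-RGMa against naïve, and 0.12 for Foxo1 and 0.090 for Tgfbr1 between the antibodies. With equal medians Flt1 1419300_at had -0.016 in isotype control against naïve and Flt1 1454037_a_at -0.10 in anti-RGMa against naïve, where quantile normalization gave -0.092 and the muscle covariate -0.025. Between the antibodies the muscle covariate gave -0.084 for Vegfa 1451959_a_at and 0.012 for Angpt1 1421441_at, and the replicate block -0.00044 for Flt1 1419300_at and -0.024 for Flt1 1440926_at. Without isotype control replicates 3, 4 and 5 the values between the antibodies were -0.14 (Vegfa 1451959_a_at), -0.027 (Flt1 1440926_at), 0.17 (Flt4 1421442_at), 0.076 (Angpt1 1439066_at) and 0.39 (Angpt1 1421441_at). Leaving out single mice turned Flt4 1421442_at (-0.26 to 0.085) and Angpt2 1459636_at (-0.36 to 0.69) in isotype control against naïve, Flt1 1454037_a_at (-0.082 to 0.095) in anti-RGMa against naïve, and, between the antibodies, Vegfa 1451959_a_at (-0.096 to 0.13), Flt1 1419300_at (-0.044 to 0.16), Flt1 1440926_at (-0.062 to 0.070) and Angpt1 1421441_at (-0.33 to 0.052).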
